A study of Rattus norvegicus with 26 samples.

Results

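The 7 genes that mark the oligodendrocyte lineage from its proliferating precursors to newly myelinating cells, Pdgfra, Olig1, Olig2, Sox10, Gpr17, Myrf and Bcas1, were followed in rat spinal cord through injury and cell transplantation. They were taken by gene name from the gene count table, so that the set held 7 of the 32883 genes listed, and all 7 were among the 17990 genes with enough reads to be tested. RNA-seq was carried out on 26 libraries of bulk spinal cord tissue, each from a segment of 5 mm. The study asked which genes of the injured cord respond to hUC-MSCs, human mesenchymal stem cells, which are stromal cells grown from the umbilical cord of newborns.

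All rats were wild-type female Sprague-Dawley animals of 250 g, and the labels give postnatal day 70 as the age in each of the 8 groups. The Intact group (4 libraries) was untreated in the labels and is described in the study as intact or sham rats. The other 7 groups had received a compression injury (SCI) at the thoracic level from an aneurysm clip of 60 g closed for 1 min, which leaves the injury incomplete. The sub-SCI group (3 libraries) was sampled at day 7 after injury, the day on which transplantation was done in the others. The +PBS groups were injected intrathecally with saline and the +MSC groups with hUC-MSCs, and both were sampled after 1 week, 2 weeks or 4 weeks (weeks post-transplantation, wpt), that is 14, 21 and 35 days after injury. There were 3, 2 and 4 libraries of +PBS-1w, +PBS-2w and +PBS-4w, and 3, 3 and 4 of +MSC-1w, +MSC-2w and +MSC-4w. According to the methods, cyclosporin A was given daily against rejection of the human cells, and whether the Intact rats received it is not given in the sources used here. In comparisons with Intact, the injury, the surgery and the time elapsed cannot be told apart.

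Oligodendrocytes wrap axons of the central nervous system in myelin and are replaced from oligodendrocyte precursor cells, which persist in the adult cord, divide after injury and mature in steps. Olig1 and Olig2 are basic helix-loop-helix transcription factors and Sox10 is an HMG-box factor, and all of them are present from precursor to mature cell. Pdgfra is the receptor through which PDGF-A drives precursor division, Gpr17 is a membrane receptor of committed precursors, Myrf switches on the myelin genes, and Bcas1 marks cells that have begun to myelinate. Some are shared with other cells: fibroblasts and other perivascular cells also carry Pdgfra, and Schwann cells, the myelin-forming cells of peripheral nerve, also carry Sox10.

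RefSeq promoter windows, from 250 bases before to 50 bases after the transcription start, were listed for 3 of the 7 genes in build GRCr8 of the rat genome (Pdgfra, Olig2 and Gpr17). Those of Pdgfra and Olig2 are shown because Pdgfra was the member called higher after injury and Olig2 the gene against which the others were set in ratios, and each is read 5′ to 3′ on the strand of its gene. The window of Pdgfra lies at chr14:33408467-33408766 on the minus strand and that of Olig2 at chr11:43961335-43961634 on the plus strand. Capitals mark a match to the E-box CANNTG, the core letters bound by helix-loop-helix factors.
Pdgfra: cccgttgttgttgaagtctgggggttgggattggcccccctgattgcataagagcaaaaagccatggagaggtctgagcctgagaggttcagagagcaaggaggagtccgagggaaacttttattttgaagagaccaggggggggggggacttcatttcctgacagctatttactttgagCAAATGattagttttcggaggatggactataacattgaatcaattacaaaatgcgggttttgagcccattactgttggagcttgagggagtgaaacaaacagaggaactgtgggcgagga
Olig2: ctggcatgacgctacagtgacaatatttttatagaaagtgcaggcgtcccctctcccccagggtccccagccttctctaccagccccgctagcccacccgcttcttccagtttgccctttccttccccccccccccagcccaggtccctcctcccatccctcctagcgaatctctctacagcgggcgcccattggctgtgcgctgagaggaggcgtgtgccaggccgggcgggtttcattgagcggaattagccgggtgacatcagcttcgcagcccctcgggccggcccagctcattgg

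The Pdgfra window held 1 E-box match and the Olig2 window held none, while 72.1% of the 33469 RefSeq rat promoters held at least 1 on either strand. The letters ACAAAG, a core bound by SOX factors, were in neither window and in 18.8% of all promoters. GC content was 48.0% in the Pdgfra window and 63.3% in the Olig2 window. Olig1 and Olig2 are direct neighbours on chromosome 11, with 0 genes listed between them, whereas Pdgfra lies on chromosome 14. The matches describe letters and not binding.

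Total counts ranged from 19496602 to 43468509 per library. All 7 members were detected in the Intact cord, a tissue of mixed cells. There the mean level per kilobase of gene (FPKM, computed from the counts and the listed gene length) was 301 ± 34.6 for Bcas1, 167 ± 13.9 for Olig1 and 83.0 ± 7.67 for Myrf (SD, n = 4). Sox10 stood at 73.6 ± 5.72 FPKM, Olig2 at 39.1 ± 6.16, Gpr17 at 33.8 ± 3.37 and Pdgfra at 18.0 ± 4.78, so Pdgfra had the lowest level of the 7 and Bcas1 the highest. Levels of different genes do not rank the number of cells at each step. Several libraries stood apart from their groups. Replicate 3 of sub-SCI and replicate 3 of +PBS-1w had the lowest summed level of 14 mature myelin genes in their groups (14385 and 10315 CPM, that is counts scaled to the size of the library, against 18968 or more and 16453 or more). In replicate 1 of +PBS-4w the sum of 8 fibroblast and pericyte markers was 1242 CPM against 3999 to 5025 in the other 3 libraries, and the precursor gene Tnr stood at 5.66 CPM against 50.7 to 76.2.

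Pdgfra, which precursors share with fibroblasts and other perivascular cells, rose after injury in 3 of 4 comparisons with Intact. No other member was called higher. The Intact libraries held 83.8, 103, 156 and 127 CPM (normalized by TMM), and the sub-SCI libraries 198, 199.5 and 331. With saline alone, the +PBS-1w libraries held 175, 228 and 375 CPM, the +PBS-2w libraries 196 and 171 and the +PBS-4w libraries 99.0, 399, 359 and 280.0. All sub-SCI, +PBS-1w and +PBS-2w libraries lay above the highest Intact library, as did 32.9%, 28.5% and 31.1% of all genes in this direction, and at 4 wpt 3 libraries did while replicate 1 lay within the Intact range. Pdgfra rose 2.07-fold in sub-SCI, with a log2 difference of 1.05 ± 0.33 (SE, adjusted p = 0.00857) in edgeR's quasi-likelihood test, with p adjusted by Benjamini-Hochberg over all genes tested. It rose 2.21-fold at 1 wpt, by 1.14 ± 0.33 (SE, adjusted p = 0.00567), and 2.42-fold at 4 wpt, by 1.27 ± 0.31 (SE, adjusted p = 0.00166). At 2 wpt, with 2 saline libraries, the value was 0.64 ± 0.37 (SE, adjusted p = 0.178) and did not pass. In this whole-tissue RNA, a change in the number of cells of a type and a change in RNA per cell cannot be told apart.

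The call threshold was an adjusted p under 0.01, which 50.8% of all genes tested passed in sub-SCI vs Intact, 41.7% in +PBS-1w vs Intact, 22.6% in +PBS-2w vs Intact and 40.2% in +PBS-4w vs Intact. Of the 7 members, 1, 1, 0 and 2 passed in these comparisons, below the share of all genes in this edgeR fit. At 2 wpt none passed an unadjusted p of 0.05 either, where 24.0% of all genes were higher and 22.0% lower, while DESeq2 on the 2 groups called 2, Bcas1 and Olig1, both lower, beside 39.7% of all genes. The order depended on the tool: DESeq2 on the Intact and +PBS-4w libraries alone called 6776 of 16196 genes and a larger share of the members. The Pdgfra call at 4 wpt held with any 1 library left out, but a fit to the Intact and +PBS-4w libraries alone gave 1.26 (adjusted p = 0.0262). The sub-SCI call was lost without sub-SCI replicate 3, at 0.76 (adjusted p = 0.0773), and without Intact replicates 1, 2 or 4, at 0.98 (adjusted p = 0.0229), 1.05 (adjusted p = 0.0183) and 1.09 (adjusted p = 0.0146). The call at 1 wpt was lost without +PBS-1w replicate 3, at 0.78 (adjusted p = 0.0731), and without Intact replicates 1, 2 or 4, at 1.09 (adjusted p = 0.0153), 1.16 (adjusted p = 0.0123) and 1.18 (adjusted p = 0.0105).

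**Figure D1:**
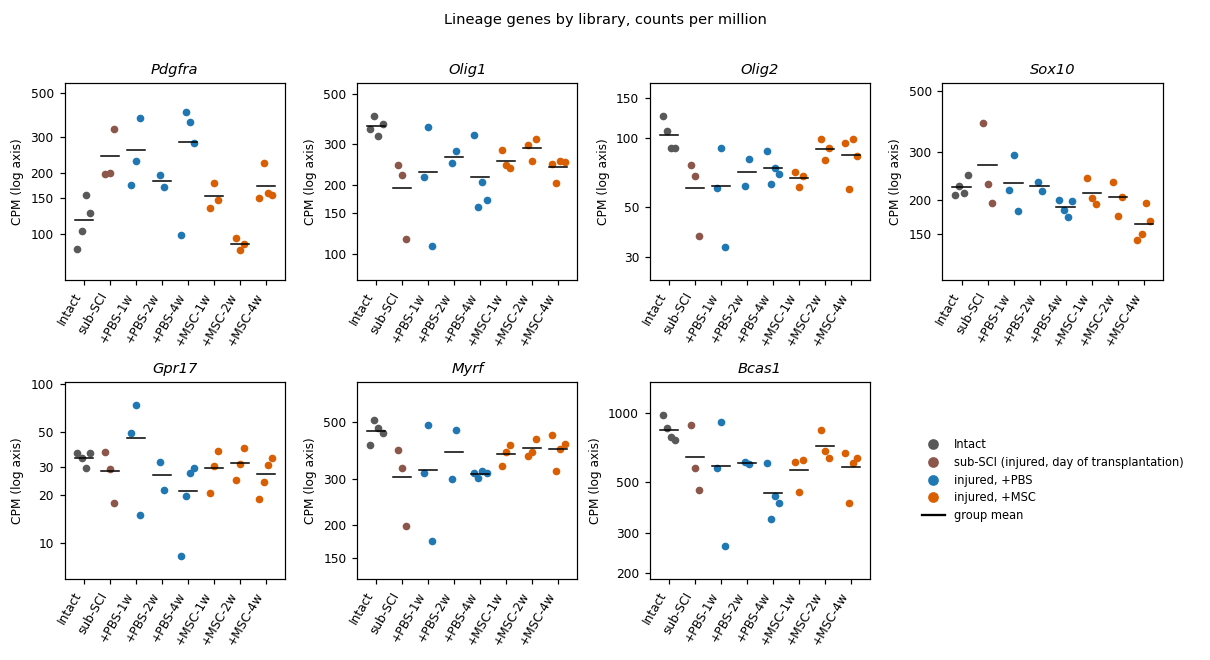
Level of each lineage gene in each of the 26 libraries, in CPM on a log axis, with 1 panel per gene, 1 point per library and a bar at the arithmetic mean of each group. Pdgfra is the panel in which sub-SCI and most +PBS libraries (blue) lie above Intact (grey), while the +MSC-2w libraries (orange) lie at 82.9 to 95.3 CPM, within the low end of the Intact range or just below it.

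The helix-loop-helix factors had lower mean levels after injury but did not pass the test. Olig1 stood at 348, 398, 327 and 369 CPM in Intact cord and at 243, 221 and 116 in sub-SCI, and Olig2 at 125, 108, 90.8 and 91.0 and 76.7, 68.3 and 37.3. Both sets of libraries were separated, as were those of 34.0% of all genes in this direction. The log2 fold changes were -0.90 ± 0.30 (SE, adjusted p = 0.012) for Olig1 and -0.77 ± 0.26 (SE, adjusted p = 0.0142) for Olig2, just outside the threshold.

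After saline, Olig1 stood at 216, 359 and 108 CPM in the 1-week group, 248 and 279.8 in the 2-week group and 328, 159.7, 205 and 171 in the 4-week group. Replicate 2 at 1 wpt and replicate 1 at 4 wpt reached the Intact range, and the others lay below it, which at 2 wpt separated both saline libraries from Intact, as in 31.3% of all genes. The log2 fold changes against Intact were -0.66 (adjusted p = 0.0626), -0.45 (adjusted p = 0.31) and -0.74 (adjusted p = 0.0262). Olig2 stood at 60.8, 90.8 and 33.5, 61.8 and 81.1 and 87.8, 63.1, 74.0 and 69.8 CPM at the same times, and its fold changes were -0.75 (adjusted p = 0.0196), -0.54 (adjusted p = 0.165) and -0.49 (adjusted p = 0.0879). No +PBS-4w library reached the Intact range of Olig2, a separation in this direction that 21.3% of all genes showed. Single libraries decided whether these genes were called: without +PBS-1w replicate 2, Olig1 at 1 wpt gave -1.16 (adjusted p = 0.00284) and Olig2 -1.14 (adjusted p = 0.00154), without sub-SCI replicate 1 they gave -1.10 (adjusted p = 0.00965) and -0.97 (adjusted p = 0.00831), and without +PBS-4w replicate 1, Olig1 at 4 wpt gave -0.96 (adjusted p = 0.00408).

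In sub-SCI and the +PBS groups, Sox10, the HMG-box factor that works with the Olig proteins, stayed nearest to its Intact level. It stood at 208, 225, 212 and 247 CPM in Intact and 381, 229.6 and 195 in sub-SCI, where replicate 1 was far above the other libraries. The libraries held 218, 292 and 183 CPM in +PBS-1w, 233 and 216 in +PBS-2w and 200.4, 184, 174 and 198 in +PBS-4w, the last all below Intact, as for 21.3% of all genes. None of these differences passed the test, with log2 fold changes of 0.27 (adjusted p = 0.207), 0.05 (adjusted p = 0.833), 0.01 (adjusted p = 0.982) and -0.24 (adjusted p = 0.25) in time order. Against sub-SCI, Sox10 fell in +MSC-4w, at 144, 151, 195 and 167 CPM, by 0.71 on the log2 scale (SE 0.18, adjusted p = 0.00333), where 29.3% of all genes were called. The corresponding value for +PBS-4w was -0.51 (adjusted p = 0.0449), where 13.7% of all genes were called, and the difference between both was covered by the +MSC-4w vs +PBS-4w value of -0.20 (adjusted p = 0.493). The +MSC-4w call was lost without sub-SCI replicate 1, at -0.37 (adjusted p = 0.0725), and without +MSC-4w replicate 1 or 2, at -0.65 (adjusted p = 0.0131) and -0.67 (adjusted p = 0.0105).

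Gpr17, the receptor of committed precursors, spread widely among the +PBS-1w libraries. Intact libraries lay close together at 36.7, 34.4, 29.6 and 37.1 CPM, and sub-SCI libraries spread over 37.6, 29.1 and 17.9. At 1 wpt with saline the values were 49.3, 73.9 and 14.9 CPM, so the highest and the second lowest of the 26 libraries fell in the same group. At 2 wpt they were 32.4 and 21.4 and at 4 wpt 8.23, 19.8, 27.6 and 29.5, the last all below Intact, as for 21.3% of all genes. The log2 fold changes against Intact were -0.29 (adjusted p = 0.565) in sub-SCI, 0.42 (adjusted p = 0.403) at 1 wpt, -0.36 (adjusted p = 0.585) at 2 wpt and -0.70 (adjusted p = 0.133) at 4 wpt, and without +PBS-1w replicate 2 the value at 1 wpt was -0.10 (adjusted p = 0.871).

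Of the genes of the later steps, Bcas1 fell at 4 wpt and Myrf passed the test at no time. Myrf stood at 405, 506, 474 and 451 CPM in Intact, 387, 331 and 199 in sub-SCI, and 318, 484 and 174, 301 and 462 and 316, 304, 324 and 317 at 1, 2 and 4 wpt with saline. The 4 +PBS-4w libraries lay between 304 and 324 CPM, close together and all below Intact, as for 21.3% of all genes, and the sub-SCI libraries were all below it too (34.0%). Its log2 fold changes were -0.59 (adjusted p = 0.0398), -0.50 (adjusted p = 0.0868), -0.27 (adjusted p = 0.47) and -0.54 (adjusted p = 0.0432). Bcas1 stood at 977, 859.6, 787 and 760.5 CPM in Intact, 889, 574 and 459.6 in sub-SCI, and 575, 919 and 263, 609 and 601 and 608, 345, 432 and 403 at 1, 2 and 4 wpt with saline. In sub-SCI and +PBS-1w 1 library each lay in the Intact range, while at 2 and 4 wpt none did, a separation in this direction that 31.3% and 21.3% of all genes showed. Bcas1 fell by 0.92 on the log2 scale at 4 wpt (SE 0.27, adjusted p = 0.00747), and its earlier values were -0.40 (adjusted p = 0.248), -0.53 (adjusted p = 0.139) and -0.48 (adjusted p = 0.278). That call was near the threshold: it held without +PBS-4w replicate 1 and was lost without any 1 of the other 7 libraries, with values from -0.97 to -0.79 and adjusted p from 0.0103 to 0.0292. Without +PBS-1w replicate 2, Myrf and Bcas1 at 1 wpt gave -0.90 (adjusted p = 0.00338) and -1.01 (adjusted p = 0.00801).

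**Figure D2:**
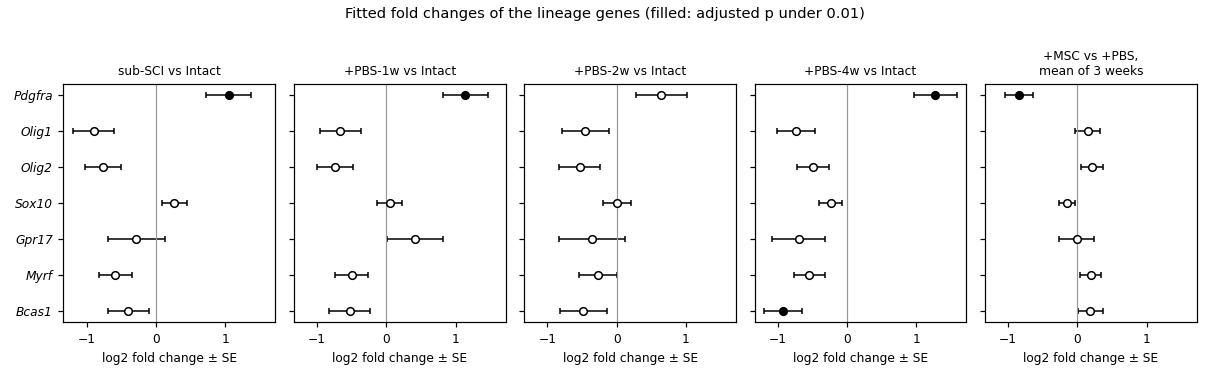
Fitted log2 fold change of the 7 lineage genes (points, bars ± SE) in sub-SCI and in each +PBS group against Intact and, at the right, in the +MSC groups against the +PBS groups over the 3 weeks. Filled points passed an adjusted p of 0.01: Pdgfra in 4 panels (1.05, 1.14 and 1.27 against Intact and -0.84 for +MSC vs +PBS) and Bcas1 in +PBS-4w (-0.92).

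Transplantation was compared with saline at each time and over the 3 times together. Pdgfra stood at 134, 178 and 147 CPM in +MSC-1w, 95.3, 82.9 and 89.5 in +MSC-2w and 151, 224, 160.1 and 156 in +MSC-4w. At 2 wpt every +MSC library was below both +PBS libraries, a separation in this direction that 18.4% of all genes showed, and at 1 and 4 wpt the groups overlapped. The weekly log2 fold changes were -0.76 ± 0.35 (SE, adjusted p = 0.267), -1.04 ± 0.39 (SE, adjusted p = 0.308) and -0.72 ± 0.31 (SE, adjusted p = 0.167), none past the threshold, and at these times 0.0111%, 0% and 0.767% of all genes were called. At 2 wpt, where edgeR called no gene, 5.49% of genes were higher and 6.84% lower at an unadjusted p under 0.05, and DESeq2 on the 2 groups called Pdgfra, with -1.04 (adjusted p = 1.72e-10), and 3.97% of all genes. In the other weeks DESeq2 on the 2 groups also called more genes than edgeR, 722 of 15191 at 1 wpt and 471 of 16141 at 4 wpt. For the mean of the 3 weeks, Pdgfra fell by 0.84 on the log2 scale (SE 0.20, adjusted p = 0.00644), to 0.559 of the saline level, and it was the 1 member called of 7, beside 9.69% of all genes. The call was lost in 13 of the 19 fits that left out 1 library, with adjusted p up to 0.0317: without +MSC-1w replicate 1 or 3, any +MSC-2w library, +MSC-4w replicate 1, 3 or 4, +PBS-1w replicate 3, either +PBS-2w library, or +PBS-4w replicate 2 or 3, the value ranging from -0.87 to -0.72. Without +PBS-4w replicate 1, whose Pdgfra level was in the Intact range, the value over the 3 weeks was -0.96 (adjusted p = 0.000203) and that at 4 wpt alone -1.03 (adjusted p = 0.00865).

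The other 6 members were not shown to differ between +MSC and +PBS. Over the 3 weeks the log2 fold changes were 0.22 ± 0.16 (SE, adjusted p = 0.349) for Olig2, 0.15 ± 0.18 (SE, adjusted p = 0.607) for Olig1 and -0.15 ± 0.11 (SE, adjusted p = 0.35) for Sox10. They were 0.19 ± 0.15 (SE, adjusted p = 0.374) for Myrf, 0.19 ± 0.18 (SE, adjusted p = 0.494) for Bcas1 and -0.01 ± 0.25 (SE, adjusted p = 0.979) for Gpr17. At 4 wpt Myrf held 445, 324, 393 and 408 CPM with cells, all above the saline libraries, a separation that 6.08% of all genes showed in this direction, and its fold change was 0.32 (adjusted p = 0.405). At 2 wpt Bcas1 held 843, 682 and 634 CPM, above both saline libraries as in 18.6% of all genes, with 0.25 (adjusted p = 0.827). Gpr17 held 20.7, 30.5 and 37.8 CPM in +MSC-1w, 25.0, 31.3 and 39.7 in +MSC-2w and 18.9, 24.2, 31.0 and 34.0 in +MSC-4w, and its weekly values were -0.64 (adjusted p = 0.477), 0.25 (adjusted p = 0.895) and 0.35 (adjusted p = 0.626). The test of whether the effect of the cells differed between 4 and 1 wpt gave the largest value among the members for Gpr17, 0.98 ± 0.58 (SE, adjusted p = 0.999), and called 0% of all genes by edgeR, with 1.86% higher and 2.04% lower at an unadjusted p under 0.05.

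Against Intact, none of the 7 members was called by edgeR in any +MSC group, where 19.2%, 10.7% and 17.6% of all genes were called at 1, 2 and 4 wpt. At an unadjusted p under 0.05, 1, 0 and 2 members were lower, beside 20.8%, 14.5% and 19.5% of all genes. Pdgfra differed from Intact by 0.38 (adjusted p = 0.394), -0.40 (adjusted p = 0.436) and 0.56 (adjusted p = 0.174). Olig1 stood at 283, 243 and 235 CPM in +MSC-1w, 298, 254 and 318 in +MSC-2w and 247, 203, 253 and 251 in +MSC-4w, below every Intact library at each time, as did 25.5%, 21.3% and 20.4% of all genes. Its log2 fold changes were -0.51 (adjusted p = 0.194), -0.31 (adjusted p = 0.485) and -0.60 (adjusted p = 0.0967). Olig2 stood at 71.3, 61.2 and 68.6, 99.1, 80.6 and 90.7 and 94.9, 59.7, 98.9 and 83.7 CPM, with -0.63 (adjusted p = 0.067), -0.20 (adjusted p = 0.628) and -0.30 (adjusted p = 0.357). Bcas1 gave -0.59 (adjusted p = 0.132), -0.23 (adjusted p = 0.623) and -0.55 (adjusted p = 0.131), and Sox10 -0.07 (adjusted p = 0.803), -0.13 (adjusted p = 0.676) and -0.44 (adjusted p = 0.0506). Olig2 and Bcas1 in +MSC-1w also lay below every Intact library, as did 25.5% of all genes. The same held for Bcas1 and Sox10 in +MSC-4w, beside 20.4% of all genes. In fits to 2 groups alone, edgeR called Olig1, Olig2 and Bcas1 lower in +MSC-1w, at adjusted p of 0.00347, 0.00485 and 0.00971, and Olig1 in +MSC-4w at 0.00149, beside 33.2% and 27.1% of all genes. DESeq2 called 3 members lower in +MSC-1w and 3 in +MSC-4w, beside 41.2% and 37.0% of all genes.

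Each other member was set against Olig2, which cells of the lineage carry at every step, within the same library. Olig2 itself had a lower mean after injury, with a log2 fold change of -0.77 in sub-SCI, beside 0.27 for Sox10. A higher ratio can therefore reflect Olig2 as well as the member, and Pdgfra is also carried outside the lineage. Movement with the lineage as a whole cannot be read from these ratios. Relative to Olig2, Pdgfra was higher than in Intact by 1.86 ± 0.52 (SE, adjusted p = 0.00335) on the log2 scale in sub-SCI, 1.96 (adjusted p = 0.00292) in +PBS-1w and 1.62 (adjusted p = 0.00836) in +PBS-4w (limma on log2 ratios). Sox10 rose relative to Olig2 by 1.03 ± 0.24 (SE, adjusted p = 0.000711) in sub-SCI and 0.88 (adjusted p = 0.00378) in +PBS-1w, and stood at 0.25 (adjusted p = 0.363) in +PBS-4w. Against the same partner 44.4%, 36.8% and 26.7% of all genes were called at these times, and Olig1, Myrf, Gpr17 and Bcas1 were not. Among these 4 the value nearest to a call was that of Gpr17 in +PBS-1w, 0.99 (adjusted p = 0.037), followed by Bcas1 in +PBS-4w, -0.46 (adjusted p = 0.0432). At 2 wpt no member was called, beside 10.3% of all genes, with 1.21 (adjusted p = 0.127) for Pdgfra and 0.55 (adjusted p = 0.139) for Sox10. Over the 3 weeks of +MSC vs +PBS the ratio to Olig2 differed by -1.01 (adjusted p = 0.0586) for Pdgfra and -0.40 (adjusted p = 0.0943) for Sox10, with 0.700% of all genes called, and without +PBS-4w replicate 1 Pdgfra gave -1.19 (adjusted p = 0.00764).

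Several of these ratio calls rested on single libraries. Relative to Olig2, Pdgfra gave 1.30 (adjusted p = 0.0579) in sub-SCI without sub-SCI replicate 3 and 1.62 (adjusted p = 0.0149) without Intact replicate 1, and 1.27 (adjusted p = 0.0627) at 1 wpt without +PBS-1w replicate 3 and 1.71 (adjusted p = 0.0133) without Intact replicate 1. At 4 wpt its call was lost without +PBS-4w replicate 2, 3 or 4 or Intact replicate 1, 2 or 4, with values from 1.33 to 1.73. Sox10 at 1 wpt lost its call relative to Olig2 without +PBS-1w replicate 3, at 0.65 (adjusted p = 0.0409), or without Intact replicate 1 or 2, at 0.75 (adjusted p = 0.0196) and 0.86 (adjusted p = 0.0108). The call of Sox10 in sub-SCI held with any 1 library left out.

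**Figure D3:**
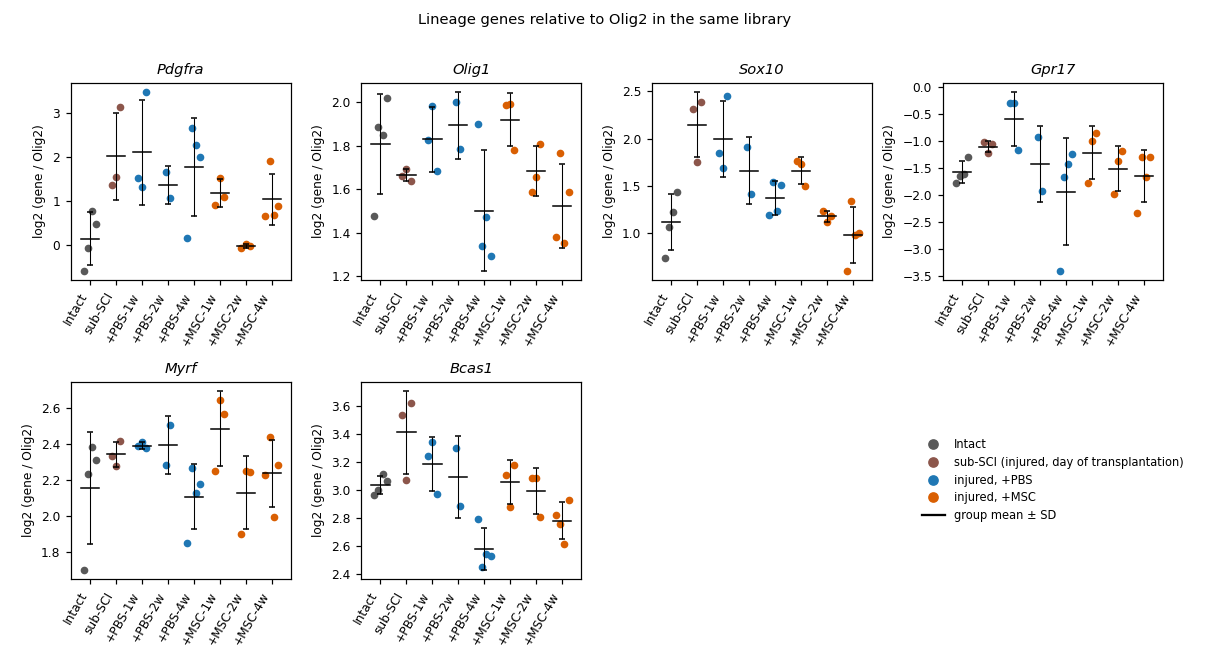
Log2 ratio of each of the other 6 lineage genes to Olig2 in the same library, with 1 panel per gene, 1 point per library, and group means ± SD as bars. For Pdgfra the sub-SCI libraries (brown) lie between 1.37 and 3.15, all above the Intact libraries (grey, -0.58 to 0.78), and for Sox10 they lie between 1.75 and 2.38, above the Intact range of 0.74 to 1.44.

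Because fibroblasts and perivascular cells also carry Pdgfra, its course was set beside that of their markers and of other precursor genes. Pdgfrb, the related receptor of pericytes and fibroblasts, stood at 34.1, 49.2, 50.0 and 49.6 CPM in Intact, 135, 156 and 199 in sub-SCI, and 55.1, 168, 122 and 101 in +PBS-4w. It rose by 1.84 ± 0.31 (SE) on the log2 scale in sub-SCI and fell in +MSC vs +PBS over the 3 weeks, by 0.92 (SE 0.19), a call lost without +PBS-2w replicate 1, at -0.94 (adjusted p = 0.0145). Over the 26 libraries, Pdgfra correlated with Pdgfrb at Pearson's r of 0.90 and Spearman's rho of 0.93 on log2 CPM, at 0.87 after the 2 libraries farthest from the median were left out, and at 0.87 on deviations from the group means. With Cspg4, the precursor proteoglycan also known as NG2, which pericytes carry too, r was 0.17 and rho 0.28, and r was 0.12 on deviations. With Ptprz1, a receptor phosphatase of precursors and astrocytes, r was -0.44, -0.20 without the 2 farthest libraries and -0.06 on deviations, and with the proteoglycan Vcan it was 0.41 and, on deviations, 0.33. Over all 9 other precursor genes tested r ranged from -0.44 to 0.41 (median -0.02) and on deviations from -0.56 to 0.41 (median 0.12), and over 8 fibroblast and pericyte markers from 0.67 to 0.90 (median 0.84) and from 0.63 to 0.88 (median 0.68). Cspg4 stood at 46.4, 56.8, 48.9 and 52.6 CPM in Intact and 57.8, 72.6 and 68.1 in sub-SCI, with a log2 fold change of 0.37 (adjusted p = 0.077). With the other members, Pdgfra gave r of -0.78 (Olig1), -0.72 (Bcas1), -0.71 (Olig2), -0.60 (Myrf), -0.13 (Gpr17) and -0.10 (Sox10). On deviations the values were -0.71, -0.67, -0.65, -0.39, 0.08 and -0.32 in the same order. All these correlations are descriptions over libraries that share groups, dissections and normalization.

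Markers of fibroblasts and pericytes were read over the same comparisons. All 8 rose in sub-SCI (median log2 fold change 3.87, against -0.02 over all genes tested) and in +PBS-1w (2.84), none of 8 was called in +PBS-2w (1.36), and 6 of 8 rose in +PBS-4w (2.32). Their summed level ranged from 172 to 1255 CPM in Intact, 8020 to 19528 in sub-SCI, 4190 to 9436 in +PBS-1w, 1751 to 2294 in +PBS-2w and 1242 to 5025 in +PBS-4w. In the +MSC groups the ranges were 1967 to 3627, 558 to 893 and 1111 to 2815 CPM at 1, 2 and 4 wpt, and over the 3 weeks 1 of 8, Pdgfrb, fell against saline (list median -1.23). These counts rested on single libraries: at 4 wpt 3 rose without +PBS-4w replicate 2, 3 or 4 or Intact replicate 2, and over the 3 weeks 0 fell without +PBS-2w replicate 1 and 6 without +PBS-4w replicate 1. None of the 8 markers was at 0 in any library, and the library with the highest Pdgfra in sub-SCI and in +PBS-1w was also the one with the highest marker sum. The part of fibroblasts and pericytes in the Pdgfra result was not tested.

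**Figure D4:**
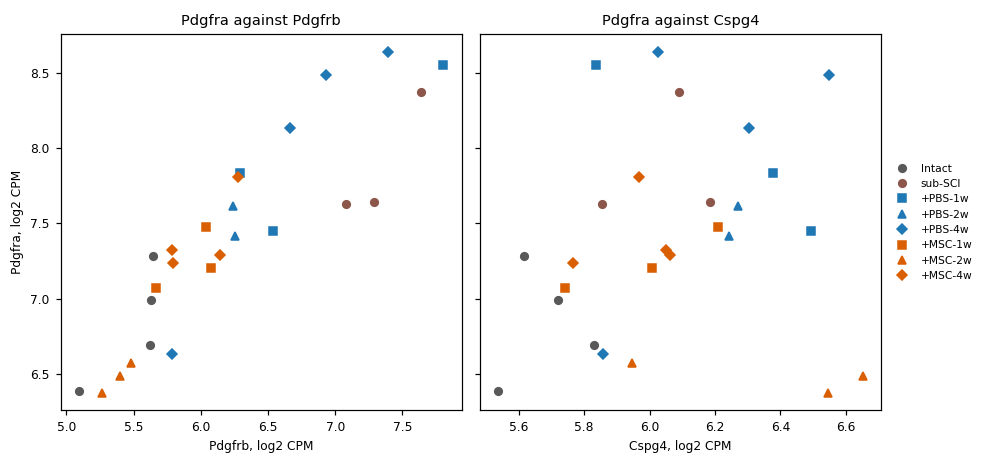
Log2 CPM of Pdgfra against log2 CPM of Pdgfrb (left) and Cspg4 (right), with 1 point per library, colours for treatment and symbols for the week. The points rise together on the left (r = 0.90) and are scattered on the right (r = 0.17).

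Nearest to Pdgfra among all genes tested were Arhgap29, Ppfibp1 and Kirrel1 (r from 0.95 to 0.96), and on deviations from group means Svil, Ppfibp1 and Tgfbr3. The other members had nearest genes other than these, some of them shared, such as Aplp1 by Olig1 and Olig2 and, on deviations, Slain1. Olig1, Olig2, Myrf and Bcas1 correlated with each other at 0.75 to 0.88 on log2 CPM. Olig1 was nearest to Phyhipl, Aplp1 and Tmem125 (0.93 each) and Olig2 to Slain1, Grik4 and Aplp1 (0.90 each), and the neighbouring Olig1 and Olig2 correlated with each other at 0.88. Sox10 was nearest to Klc4, Tjap1 and Nkx2-2, a homeodomain factor of the lineage, at 0.84, 0.82 and 0.80, the lowest values among the members. Gpr17 was nearest to Tnr, an extracellular matrix protein of precursors and oligodendrocytes, at 0.89, then to Sema6a at 0.86 and the unnamed gene AABR07021536.1 at 0.84. Myrf was nearest to Lrrn1, Arhgap23 and Mag, a myelin glycoprotein, from 0.92 to 0.91, and Bcas1 to Tmem163, Adam11 and Rnd2, from 0.90 to 0.89. On deviations from group means Bcas1 was nearest to the myelin genes Mog and Mbp, at 0.93 and 0.92, then to Wscd1, Myrf to Tmem88b, Ralgps1 and Sbf1, and Olig1 to Psat1, Adam11 and Slain1. On that scale Olig2 was nearest to Slain1, Tubb4a and Klhl4, Gpr17 to AABR07021536.1, Tnr and Prex1, and Sox10 to Pllp, Cdk18 and Sowaha.

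Because Schwann cells also carry Sox10, their markers were read over the same groups. The sum of 6 Schwann cell markers ranged from 77.8 to 276 CPM in Intact, 100 to 189 in sub-SCI and 274 to 729 in +PBS-4w. Of these 6 markers, 1, 2, 0 and 1 rose in sub-SCI, +PBS-1w, +PBS-2w and +PBS-4w, and none fell, and 1, Ncmap, was at 0 in at least 1 library. Of other cell types, 7 of 7 microglia and macrophage markers rose in sub-SCI (median 2.70), 3 of 6 astrocyte markers fell (median -0.74), and 1 of 3 endothelial markers rose and 1 fell (0 without Intact replicate 2 or sub-SCI replicate 1 or 2). With cells over the 3 weeks 1 microglia and macrophage marker and 1 endothelial marker fell and 1 astrocyte marker rose, counts that were each 0 in at least 1 of the fits that left out 1 library. The part of these cells in the member values was not tested.

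Other genes of the lineage were read as lists. Of all genes tested, 25.5% were called higher and 25.3% lower in sub-SCI vs Intact, and 22.0% and 18.2% in +PBS-4w vs Intact. For +MSC vs +PBS over the 3 weeks these shares were 5.77% and 3.92%. In sub-SCI vs Intact, 0 of 14 mature myelin genes rose and 9 fell (median log2 fold change -1.21), beside a median of -0.02 over all genes tested, among them Fa2h, a lipid enzyme of myelin, at -1.81 ± 0.23 (SE), and the oligodendrocyte proteins Ermn, Mobp and Opalin at -1.86 ± 0.24, -2.03 ± 0.30 and -1.69 ± 0.33. In +PBS-4w 9 fell and 1, Aspa, rose (median -0.98, beside 0.05 over all genes). Of 6 committed precursor and premyelinating genes 3 rose at both times and none fell (medians 0.64 and 0.38): the small GTPase Rras2 by 1.95 ± 0.24, the hyaluronidase Cemip2 by 1.75 ± 0.25 and the adhesion protein Tns3 by 0.79 ± 0.16 in sub-SCI. Rras2 was also the 1 gene of that list that fell in +MSC vs +PBS, by 0.67 over the 3 weeks, and it was not called without +PBS-2w replicate 1, at -0.64 (adjusted p = 0.0237). At 4 wpt 1 gene of the list rose in place of 3 without +PBS-4w replicate 2 or Intact replicate 3. Cemip2 and Rras2 are not specific to the lineage.

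Among 9 other precursor genes tested, 1 rose and 2 fell in sub-SCI (median -0.02): the matrix proteoglycan Vcan rose by 1.67 ± 0.21, Pcdh15, a cadherin, fell by 1.78 and Sema5a by 0.82. The Sema5a call was lost in 6 of 7 fits that left out 1 library, all but that without sub-SCI replicate 1, with adjusted p up to 0.0647. Among 13 other lineage transcription factors, 1 rose and 4 fell (median -0.46): the Wnt effector Tcf7l2 by 1.74 ± 0.22, and Zfp536, Sox5, St18 and Myt1 at -0.93, -1.21, -1.39 and -0.91. In sub-SCI 25.5% of all genes were called higher and 25.3% lower, and the counts of neither list stood far above these shares. St18 rose in +MSC vs +PBS by 0.57 ± 0.15, the 1 gene of that list called, and that call was lost in 17 of 19 fits that left out 1 library, with values from 0.48 to 0.69 over the 19 and adjusted p up to 0.0372. Myt1 in sub-SCI was not called without Intact replicate 3 or sub-SCI replicate 2 or 3, with adjusted p up to 0.034.

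Signals that act on precursors were read as lists as well. In sub-SCI 25.5% of all genes were called higher and 25.3% lower, and in +PBS-4w 22.0% and 18.2%. With cells over the 3 weeks the shares were 5.77% and 3.92%. The lists are short, and the sub-SCI counts of the list for inhibition of differentiation stood near these shares. Of 8 growth and survival ligands, 4 rose and 1 fell in sub-SCI (median 0.33): the cytokine Lif by 3.79 ± 0.40, Igf1 by 3.57 ± 0.39 and Pdgfc by 1.32 ± 0.23, while the neuregulin Nrg1 fell by 3.10. Pdgfb, a ligand of both PDGF receptors, rose too, by 0.74 ± 0.14. In +MSC vs +PBS over the 3 weeks Nrg1 rose by 1.20 ± 0.21 and Pdgfc, a ligand of Pdgfra, fell by 0.56. The Pdgfc call was lost in 15 of 19 fits that left out 1 library (adjusted p up to 0.0299), and that of Nrg1 without +PBS-2w replicate 1, at 1.06 (adjusted p = 0.0127). Of 7 genes listed as growth and survival receptors, 0 rose and 4 fell in sub-SCI (median -0.85), Gpr37, Fgfr3, Fgfr2 and S1pr5. Gpr37 was the 1 that rose with cells, by 0.52 ± 0.13. Which cells carried these receptors was not tested. The Gpr37 call with cells was lost in 13 of 19 such fits (adjusted p up to 0.0696) and that of S1pr5 in 5 of 7, without Intact replicate 1, 2 or 4 or sub-SCI replicate 2 or 3 (adjusted p up to 0.0487). Of 12 genes for inhibition of differentiation, 4 rose (Hes1, Bmp7, Jag1 and Bmp2) and 3 fell (Lingo1, Rtn4r and Hes5) in sub-SCI (median 0.26), and 6 rose and 3 fell in +PBS-4w. In sub-SCI 1 gene fell without Intact replicate 2, 3 or 4 or sub-SCI replicate 2 or 3 and 2 without either other library, and 3 rose in +PBS-4w without +PBS-4w replicate 2. With cells, Bmp7 and Bmp4, which turn precursors away from the lineage, fell by 1.77 and 1.00, and Lingo1, a membrane inhibitor that neurons also carry, rose by 0.68 ± 0.17. Bmp4 was not called without +MSC-2w replicate 1, +PBS-1w replicate 3 or +PBS-2w replicate 1 (adjusted p up to 0.0245), and Lingo1 in 10 of 19 fits (adjusted p up to 0.0295). Over all genes tested the median was -0.02 for the cells as well. Of the neuron markers 6 of 6 fell in sub-SCI and 3 of 6 rose with cells, from 0 without +PBS-2w replicate 1 to 6 without +PBS-4w replicate 1, and their part in the Lingo1 and Nrg1 values was not tested.

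**Figure D5:**
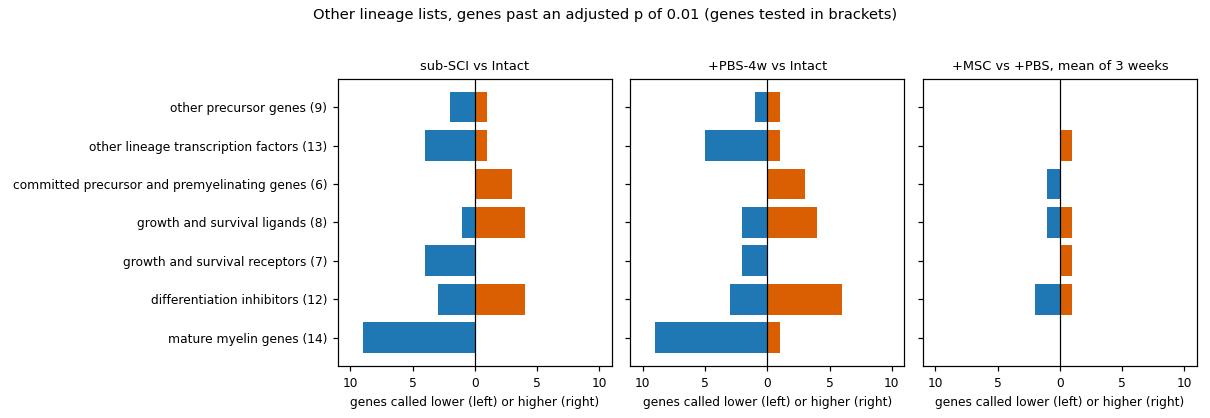
Number of genes in each list of the lineage that passed an adjusted p of 0.01, lower to the left and higher to the right, in sub-SCI vs Intact, +PBS-4w vs Intact and +MSC vs +PBS over the 3 weeks, with the number tested in brackets. The bar for 9 lower mature myelin genes is the longest in both injury panels, and no list has more than 3 genes called in the panel for the cells. Of all genes tested, 25.5%, 22.0% and 5.77% were called higher and 25.3%, 18.2% and 3.92% lower, in the order of the panels.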

How the data were processed

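The deposited values were raw counts of read pairs per gene, which the authors made by trimming with Trim Galore 0.5.0, removing reads that mapped to the human genome (GRCh38) with HISAT2 2.1.0, aligning the rest to the rat genome (Rnor6), keeping proper pairs with SAMtools 1.9 and counting with featureCounts 1.6.4. Reads of conserved genes that map to both genomes are lost at the first step. The strand setting and annotation release are not given in the sources used here, so reads of overlapping genes cannot be told apart. The 26 library files equalled the joint count table, and none of its rows lacked a gene. Groups came from the labels, which give 3 +MSC-2w and 2 +PBS-2w libraries. The methods give these 2 numbers the other way round, and the labels were followed. The labels do not say that replicates are separate animals (the methods call them biological replicates), and p-values measure the spread between these samples.

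Counts were filtered with edgeR 4.0.16 (filterByExpr), normalized by TMM and fitted in 1 quasi-likelihood model of 8 groups, without a replicate block. Genes with a Benjamini-Hochberg adjusted p under 0.01 over the 17990 genes tested were called. CPM are TMM-normalized, log2 CPM used a prior count of 2, and ratios were tested with limma 3.58.1 (R 4.3.3). Scripts were tested on simulated data. Alternatives were DESeq2 1.42.0 (on all libraries or on the 2 groups compared), other scalings, filters, a threshold of 0.05, and leaving out libraries. Total counts of 19496602 to 43468509 limit the precision of low genes, and intervals cover these libraries only.

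Members and gene lists were chosen with earlier results of these data known, and support nothing by themselves. Some planned results and listed genes are not reported here, and list counts and sums leave those genes out. Named were all members, up to 4 listed genes per list and comparison with the smallest adjusted p, and for each member the 3 genes with the highest correlation on each scale. Aspa, Pdgfb, Myt1, Bmp2, Rtn4r, Hes5, Ncmap, Cspg4 and Ptprz1 were named after their values were seen.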

Additional observations from a re-analysis of the deposited data

Results flagged for a closer look

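In +MSC-4w, replicate 2 stood apart from the other 3 libraries in 2 of the 21 checks made over the 7 members in the groups of 4 libraries. Its Pdgfra level was 224 CPM against 151 to 160.1 CPM in the others, and its Olig1 level was 203 CPM against 247 to 253 CPM. In each case the gap to the nearest library was a larger part of the group's range than Dixon's 95% critical value allows. Chance alone marks about 1 in 20 such groups. The same library had the highest fibroblast and pericyte marker sum (2815 CPM against 1111 to 1796) and the lowest mature myelin sum (14533 CPM against 21269 or more) in its group, and their part in both values was not tested.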

How the results depend on the processing

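Pdgfra kept its direction in sub-SCI, +PBS-1w and +PBS-4w vs Intact and in +MSC vs +PBS over the 3 weeks in every alternative tried, while the numbers of members called moved, and the cause was not tested. At an adjusted p under 0.05, 4 members instead of 1 were called in sub-SCI vs Intact, 2 instead of 1 in +PBS-1w vs Intact, 4 instead of 2 in +PBS-4w vs Intact and 1 instead of 0 in +PBS-4w vs sub-SCI. DESeq2 on all libraries called 2 in sub-SCI vs Intact. The shares of all genes beside these counts are not given here. DESeq2 on the 2 groups called 3 in sub-SCI, 2 in +PBS-2w, 5 in +PBS-4w, 3 in +MSC-1w and 3 in +MSC-4w vs Intact, 1 in +MSC-2w vs +PBS-2w and 0 in +MSC-4w vs sub-SCI, and edgeR on the 2 groups 3 in +MSC-1w vs Intact, 1 in +MSC-4w vs Intact and 0 in +MSC-4w vs sub-SCI. Beside these, DESeq2 called 10420 of 16675 genes in sub-SCI, 39.7% in +PBS-2w and 6776 of 16196 in +PBS-4w vs Intact. It called 41.2% in +MSC-1w and 37.0% in +MSC-4w vs Intact, 3.97% in +MSC-2w vs +PBS-2w and 6694 of 16734 in +MSC-4w vs sub-SCI. The edgeR fits to 2 groups called 33.2%, 27.1% and 3930 of 16742 genes. With limma-voom weights 0 ratios to Olig2 were called in +PBS-4w, against 1. Spearman's correlation named 14 of the 42 nearest genes again. The replicate number did not pair the samples (correlations of same-numbered deviations from -0.16 to 0.32, and in 0 of 10 comparisons with 3 or more pairs did every library correlate best with its own number): with it as a block, 2 members were called in sub-SCI vs Intact, and Sox10 in +PBS-2w vs Intact was -0.015. A term for the libraries numbered 1 gave 3 calls in sub-SCI vs Intact and -0.034 for that Sox10 value. Leaving out all libraries numbered 1, a choice made after seeing the data, gave 1 call in +PBS-4w vs Intact, 0 in +MSC-4w vs sub-SCI, 0.18 for Gpr17 in +MSC vs +PBS, -0.20 for Myrf in +MSC-2w vs +PBS-2w, and -0.058 and -0.056 for Sox10 in +PBS-2w and sub-SCI vs Intact. Library totals without TMM shifted the median of all genes by 0.107 in +MSC-1w vs Intact and gave 0.035 for Sox10 there. With 1 library left out at a time, members called ranged from 0 to 3 in sub-SCI, 0 to 5 in +PBS-1w and 1 to 3 in +PBS-4w vs Intact, and from 0 to 1 in +MSC vs +PBS over the 3 weeks, +MSC-4w vs +PBS-4w and +MSC-4w vs sub-SCI. Ratios to Olig2 called ranged from 1 to 2 in sub-SCI, 0 to 2 in +PBS-1w, 0 to 1 in +PBS-4w and 0 to 1 in +MSC vs +PBS. Some values near 0 changed sign in these fits. In +MSC-1w vs +PBS-1w Bcas1 ranged from -0.41 to 0.42, Myrf from -0.091 to 0.61, Olig1 from -0.18 to 0.65, Olig2 from -0.18 to 0.51 and Sox10 from -0.26 to 0.083. Gpr17 ranged from -0.15 to 0.16 in +MSC vs +PBS, -0.020 to 0.59 in +MSC-2w vs +PBS-2w, -0.10 to 0.84 in +PBS-1w vs Intact, and relative to Olig2 from -0.34 to 0.65 in +PBS-2w and -0.59 to 0.13 in +PBS-4w. Myrf ranged from -0.22 to 0.39 in +MSC-2w vs +PBS-2w and -0.61 to 0.034 in +PBS-2w vs Intact, and Sox10 from -0.15 to 0.19 in +PBS-1w, -0.023 to 0.065 in +PBS-2w and -0.071 to 0.45 in sub-SCI vs Intact. In fits without 1 of the 2 +PBS-2w libraries, the lone library is assumed to vary like the other groups. Depth of 19496602 counts or more leaves the number of libraries, 2 to 4 a group, as a limit.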
